A study of Mus musculus with 18 samples.

Results

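The 10 genes examined here encode proteins of the acrosome and of sperm-egg fusion: Acr, Acrv1, Acrbp, Spaca1, Spaca3, Zpbp, Zpbp2, Izumo1, Spam1 and Dpy19l2. They were taken by name, as the rows of the deposited table whose NCBI Gene ID maps to these symbols, and all 10 were found among the 22657 genes of the table. Values were FPKM (reads per kilobase of transcript, scaled to the number of mapped reads) from poly(A) RNA-seq of cultured mouse testes, 18 samples in 6 groups of 3. ICR mice received busulfan, an alkylating agent toxic to dividing germ cells, once at 3 weeks of age (40 μg/g body weight), or were left untreated. Testes were collected 2 weeks later and kept in culture for 48 h. A0, A10 and A50 came from untreated mice and were cultured with 0, 10 or 50 μg/mL alginate oligosaccharides (AOS), short sugar chains made from brown algae. B0, BA10 and BA50 came from busulfan-treated mice with the AOS concentrations in the same order. All groups shared the same basal medium with serum. Several testes went into each treatment, and the labels do not say whether same-numbered samples share a culture run, so p-values measure the spread between these samples, which may be partly technical.

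The acrosome is a membrane-bound cap that forms from the Golgi apparatus over the nucleus of the round spermatid. Its enzymes and matrix proteins are released when the sperm meets the egg coat, and membrane proteins that the release exposes then take part in binding and fusion with the egg. Transcripts of acrosome genes start to build up in late spermatocytes for some genes and in round spermatids for others, so a whole-testis sample holds both kinds of cell. In such bulk samples, fewer cells of a type and less RNA per cell cannot be told apart.

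The members take different places in this structure. Dpy19l2 is a protein of the inner nuclear membrane that anchors the acrosome to the nucleus, and Spaca1 is a membrane protein of the acrosome needed for its shape. Acr is acrosin, the main acrosomal protease, and Acrbp binds its precursor proacrosin and is needed for packing it. Zpbp and Zpbp2 are related proteins of the acrosomal matrix that bind the egg coat. Acrv1 is another matrix protein, Spaca3 is a lysozyme-like protein of the acrosome, and Spam1 is a hyaluronidase of the sperm surface and acrosomal membrane. Izumo1 is the sperm protein that binds the egg receptor Juno and is required for fusion.

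By the GENCODE M21 annotation of GRCm38, all 10 are protein-coding genes. Dpy19l2 lies at chr9:24557047-24696293 on the minus strand with 22 exons in its principal transcript, and Zpbp2 at chr11:98551097-98558665 on the plus strand with 8. Izumo1 lies at chr7:45621811-45628823 and Spam1 at chr6:24791188-24801048, both on the plus strand. Exons of Zpbp overlap exons of Spata48 on the other strand, exons of Izumo1 overlap those of Rasip1 on the same strand, and exons of Acrbp overlap 2 non-coding genes. No strand setting is stated for the counting, so reads in these stretches may have been assigned to either gene.

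The 4 promoters printed next are shown because they stand for both patterns described below: Dpy19l2 and Zpbp2 were lower after busulfan, while Izumo1 and Spam1 were not. Each run is the 250 bases before the RefSeq start of the gene, read 5′ to 3′ on the strand of the gene (build GRCm38.p6), and capitals mark the letters TGACG on either strand, the core of the cAMP response element (CRE) that CREM, a regulator of spermatid genes, can bind.
Dpy19l2, chr9:24696294-24696543, minus strand: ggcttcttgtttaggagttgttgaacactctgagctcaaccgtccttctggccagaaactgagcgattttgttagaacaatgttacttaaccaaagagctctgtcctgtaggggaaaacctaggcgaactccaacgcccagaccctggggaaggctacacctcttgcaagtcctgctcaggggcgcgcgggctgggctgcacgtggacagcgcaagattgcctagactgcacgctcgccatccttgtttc
Zpbp2, chr11:98550847-98551096, plus strand: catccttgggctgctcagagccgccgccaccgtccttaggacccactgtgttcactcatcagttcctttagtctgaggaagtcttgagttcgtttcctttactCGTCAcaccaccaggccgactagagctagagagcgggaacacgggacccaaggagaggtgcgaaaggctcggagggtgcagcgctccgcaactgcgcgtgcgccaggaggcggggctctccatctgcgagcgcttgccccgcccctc
Izumo1, chr7:45621561-45621810, plus strand: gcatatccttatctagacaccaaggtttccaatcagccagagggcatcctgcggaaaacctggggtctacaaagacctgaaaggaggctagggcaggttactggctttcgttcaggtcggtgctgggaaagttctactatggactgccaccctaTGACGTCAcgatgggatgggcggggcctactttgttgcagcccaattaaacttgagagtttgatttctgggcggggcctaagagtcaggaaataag
Spam1, chr6:24790938-24791187, plus strand: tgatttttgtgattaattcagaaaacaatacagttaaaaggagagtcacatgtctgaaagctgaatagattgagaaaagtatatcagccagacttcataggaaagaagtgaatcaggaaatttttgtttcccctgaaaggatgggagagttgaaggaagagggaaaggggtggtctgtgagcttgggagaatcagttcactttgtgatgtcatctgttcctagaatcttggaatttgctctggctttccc

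Of these 4, Izumo1 holds the whole palindrome TGACGTCA, starting 96 bases before the start, and Zpbp2 holds TGACG on the opposite strand at 147 bases. Neither Dpy19l2 nor Spam1 has a match. RefSeq promoters were found for 9 members, with 1 taken per gene. Of the 9, 5 hold TGACG (Spaca1, Acrbp, Izumo1, Spaca3 and Zpbp2), against 17.8% of 32851 promoters of the same length, which were not limited to 1 per gene. By GENCODE M21 the windows of Spaca1 and Acrbp overlap exons of these genes themselves. Those of Spaca3 and Acrv1 overlap exons of another gene. TGACGTCA, which contains TGACG, is in Izumo1 alone and in 1.55% of all promoters. Other letters searched on both strands were TATAAA (the TATA box) in 0 of the 9 and 12.4% of all; GTTGCC, part of the RFX X-box, in Acrbp and 10.4% of all; ACAAT, a SOX core, in Spam1, Dpy19l2 and Acrv1 and 27.7% of all; and AACGG, a MYB core, in Zpbp and 14.5% of all. The matches are letters in a window and do not show binding. Promoters with TGACG occur both among members that were lower after busulfan (Zpbp2) and among members that were higher in value (Izumo1, Spaca3).

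All 10 genes were well detected. The mean over the 18 samples was highest for Acrbp (140 FPKM), followed by Spaca1 (78.5), Zpbp2 (74.1), Acrv1 (63.3), Acr (55.2), Spaca3 (45.2), Zpbp (32.1), Dpy19l2 (25.3), Izumo1 (17.7) and Spam1 (14.9). Since FPKM is scaled by length, these levels can be compared between genes. Acrbp was above Spaca1 in 17 of 18 samples, but the neighbours further down changed places with busulfan. Spaca1 was below Zpbp2 in all 9 untreated samples (0 of 9 higher) and above it in 9 of 9 busulfan samples. Zpbp2 in turn was above Acrv1 in 9 of 9 untreated samples and in 0 of 9 busulfan samples. Dpy19l2 was above Izumo1 in 9 of 9 untreated and in 2 of 9 busulfan samples. Izumo1 and Spam1, the lowest pair, kept their order in 15 of 18 samples.

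**Figure D1:**
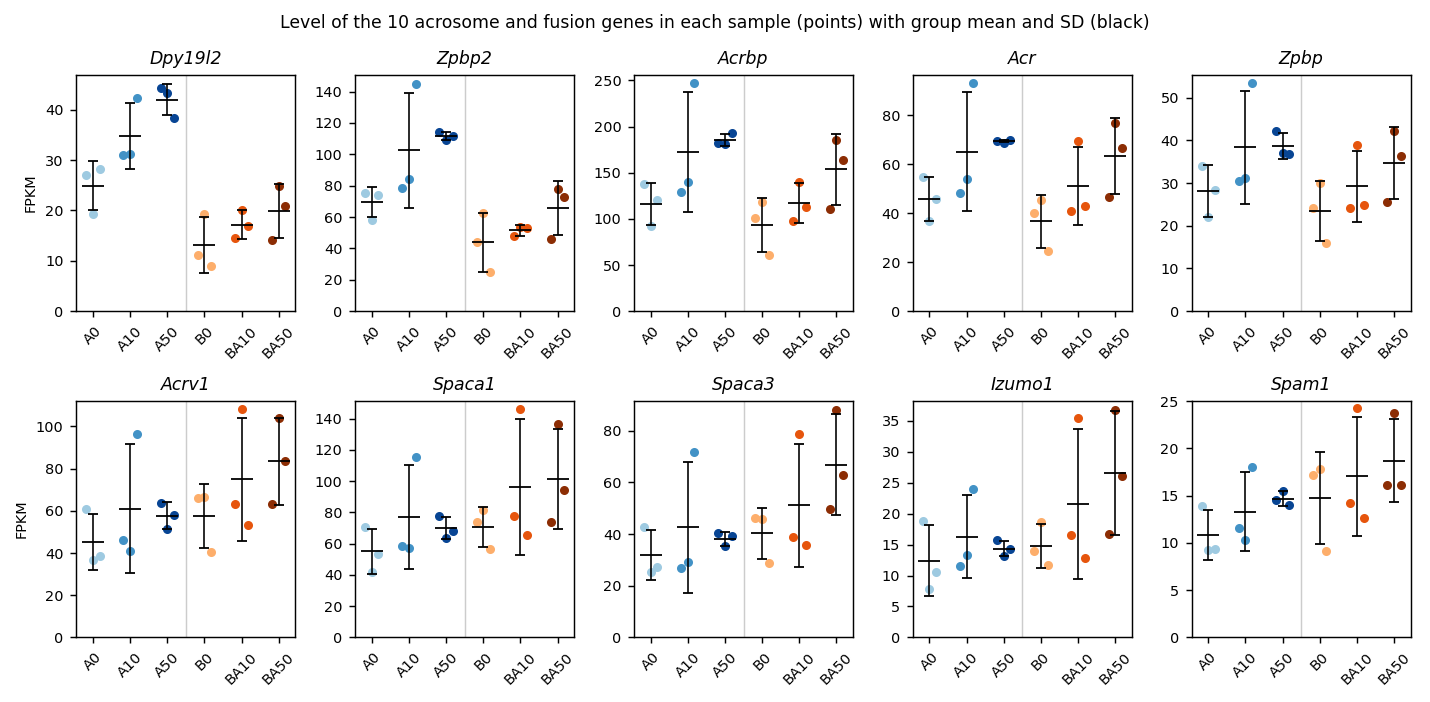
Level of each of the 10 genes in FPKM (vertical axes, starting at 0) by group; points are the 3 samples of a group and black marks show the mean and the SD. Dpy19l2 and Zpbp2 sit lower in the busulfan groups (B0, BA10, BA50), and in A10, BA10 and BA50 1 sample lies above the other 2 in most genes.

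The summed FPKM and the number of genes detected were similar between samples, but a few samples stood apart for germ cell genes. FPKM summed to 463970 to 511274 per sample, and 14291 to 15040 genes reached 1 FPKM. FPKM is already scaled to mapped reads, so its sum does not show depth, which is unknown because no read counts are given. Within A10 all 10 members were highest in replicate 3, within BA10 in replicate 2 and within BA50 in replicate 2. All 10 were lowest in A0 replicate 2, in B0 replicate 3 and in BA50 replicate 1 within these groups. The sum of the 10 was 907 FPKM in A10 replicate 3 against 473 and 492 in the other replicates, 715 in BA10 replicate 2 against 435 and 431, and 797 in BA50 replicate 2 against 462 and 644. A10 replicate 3 also had the lowest level of the Sertoli cell gene Sox9 (4.71 FPKM, against 12.3 and 14.3), and the summed FPKM of the Sertoli list was 1103 there against 2483 and 2820. In BA10 replicate 2 and BA50 replicate 2 the Sertoli sums were the highest of their groups (5359 and 5231). Spermatocyte genes fell after busulfan: 9 of 14 had an adjusted p under 0.05 in B0 against A0 and none rose, and Sycp3 dropped from 113 ± 3.54 to 10.8 ± 2.23 FPKM (SD, n = 3). Spo11, which makes the meiotic breaks, went from 4.25 ± 1.70 to 0.587 ± 0.300 FPKM. The 14 spermatid genes had a median log2 change of -0.12 in B0 against A0, none of which passed, and the protamine gene Prm1 and the transition protein gene Tnp1 were at -0.12 and -0.14. With AOS all 14 were above 0 after busulfan. Their median was 0.35 in BA10 against A10, where 0 passed, and 0.94 in BA50 against A50, where 2 passed. Prm1 and Tnp1 were at 0.93 and 0.88 in BA50 against A50 and did not pass. Of the 11 spermatogonium genes tested 6 fell and 0 rose in B0 against A0, with a median of -1.08, though Zbtb16 of that list did not pass (-0.34). Star, a Leydig cell gene, did not pass in B0 against A0 (0.62) or in BA50 against A50 (0.55). It was higher in BA10 against A10 (1.07, limma, adjusted p = 0.00227). Markers of fat cells and of simple epithelium were higher in B0: all 6 fat cell genes and 4 of 5 epithelial genes passed, and the fat cell sum was 196 to 804 FPKM in B0 against 62.4 to 84.6 in A0, with no marker of either list at 0 in B0.

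The first question is what busulfan left of these transcripts 2 weeks after the injection. After busulfan the members divided into 5 that were lower and 5 that were higher in value. Dpy19l2 fell at all 3 AOS concentrations, and Zpbp2 fell at 10 μg/mL and was lower by a similar amount at the other 2 without passing the test. Acrbp, Acr and Zpbp were lower by less, and Acrv1, Spaca1, Spaca3, Izumo1 and Spam1 were higher. The test was limma's, on log2(FPKM + 1), in 1 fit of the 18 samples over 15790 genes with all 10 members among them. Changes are on that scale, which slightly understates those of low genes.

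Dpy19l2 was measured at 27.0, 19.3 and 28.3 FPKM in A0, at 31.0, 31.2 and 42.4 in A10 and at 44.3, 43.3 and 38.5 in A50. In the busulfan samples it was 11.2, 19.4 and 8.96 in B0, 14.6, 20.2 and 16.8 in BA10 and 14.1, 24.8 and 21.0 in BA50. B0 and A0 overlap through 1 sample of each group, B0 replicate 2 and A0 replicate 2, while BA10 lies below A10 and BA50 below A50 throughout. The log2 change was -0.92 ± 0.25 (SE) in B0 against A0 (limma, Benjamini-Hochberg adjusted p = 0.0225). It was -0.98 in BA10 against A10 (adjusted p = 0.0128) and -1.07 in BA50 against A50 (adjusted p = 0.00620), each with the same SE. Dpy19l2 is thus the only member that passed in all 3 comparisons. In B0 against A0 it did not pass without A0 replicate 1 (adjusted p = 0.0901), A0 replicate 3 (0.0960), B0 replicate 1 (0.0825) or B0 replicate 3 (0.119), nor in a fit of these 2 groups alone (0.0960). In BA10 against A10 it did not pass without A10 replicate 3 (0.0616) or BA10 replicate 1 (0.0604), and in BA50 against A50 it passed without any 1 sample.

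The other genes of its family moved differently in value. Dpy19l1, Dpy19l3 and Dpy19l4 encode related membrane proteins and are not specific to sperm cells. Dpy19l1 was 19.5 ± 2.57 FPKM in A0 and 17.9 ± 2.04 in B0, Dpy19l3 2.91 ± 0.0666 and 2.45 ± 0.629, and Dpy19l4 10.3 ± 0.434 and 11.3 ± 0.985 (SD, n = 3). Their log2 changes in B0 against A0 were -0.12, -0.20 and 0.12, and none passed in the 3 busulfan comparisons.

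Zpbp2 was 75.5, 58.4 and 74.4 FPKM in A0, 78.4, 84.2 and 145 in A10 and 114, 109 and 112 in A50. After busulfan it was 44.4, 62.5 and 24.9 in B0, 47.7, 53.9 and 52.9 in BA10 and 46.1, 77.9 and 73.1 in BA50. Again only B0 and A0 overlap, where B0 replicate 2 exceeds A0 replicate 2. The log2 change was -0.92 ± 0.29 (SE) in BA10 against A10 (limma, adjusted p = 0.0365). It was -0.73 in B0 against A0 (adjusted p = 0.119) and -0.79 in BA50 against A50 (adjusted p = 0.0686), so the gene did not pass there. The call in BA10 against A10 was lost without A10 replicate 3 (adjusted p = 0.175) and without BA10 replicate 1, 2 or 3 (0.110, 0.0643 and 0.0785). It was also lost in a fit of these 2 groups alone (0.0751) and with the replicate number as a block (0.0523). In BA50 against A50 Zpbp2 passed in a fit of those 2 groups alone (adjusted p = 0.0398), with FPKM scaled to the same sum (0.0342) and with quantile normalization (0.0312). With samples weighted by their quality it passed in all 3 comparisons (adjusted p from 0.00864 to 0.0179).

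At an adjusted p under 0.05, the members thus gave 1 lower in B0 against A0, where 12.3% of all genes tested were lower and 1.47% higher. They gave 2 lower in BA10 against A10 (15.2% lower and 3.74% higher over all genes) and 1 lower in BA50 against A50 (16.2% and 3.70%), and 0 members were higher in any of the 3. A share of 1 or 2 in 10 is close to the background. The limits of the study were an adjusted p of at most 0.001 with a change of 1 or more on the log2 scale. At these limits 0 members were called by limma, against 2.49%, 3.00% and 3.36% of genes that were lower. At an unadjusted p under 0.05, 2 of 10 members were lower in each comparison, against 19.3%, 20.7% and 21.7% of genes. By overlap of the 3 samples with the other 3, 0 members were lower in B0 (22.7% of genes). In both other comparisons Zpbp2 and Dpy19l2, 2 of 10, lay below throughout (20.2% of genes in BA10 and 25.7% in BA50). In BA50 another 3 members, Spaca3, Izumo1 and Spam1, lay above A50 throughout (16.0% of genes). With 3 samples against 3, an exact permutation test of a single gene cannot go below p = 0.1.

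**Figure D2:**
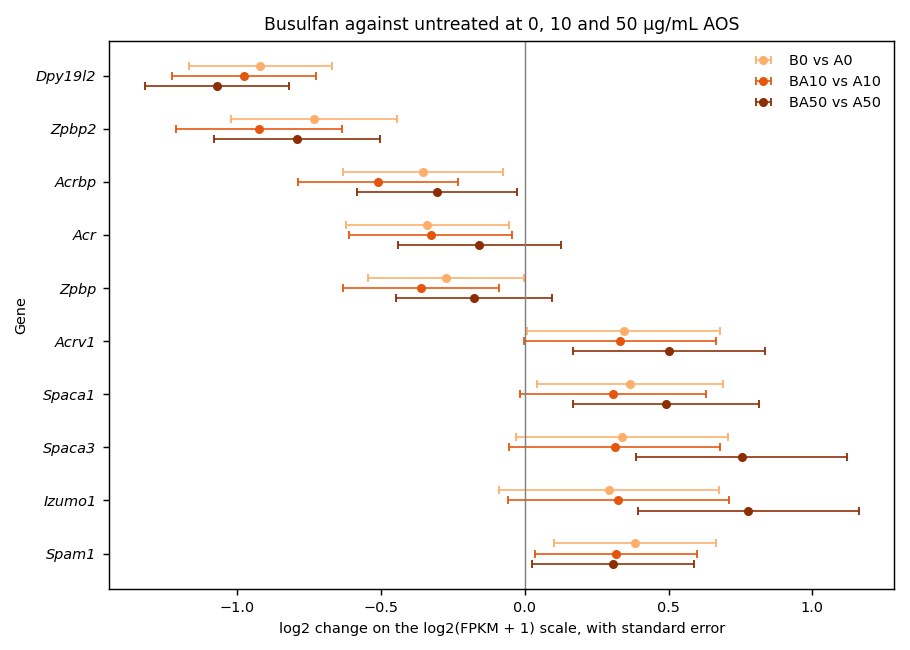
Log2 change of each gene after busulfan on the log2(FPKM + 1) scale (horizontal axis), with its standard error, at 0 (B0 vs A0), 10 (BA10 vs A10) and 50 μg/mL AOS (BA50 vs A50). Dpy19l2 lies between -0.92 and -1.07 and Zpbp2 between -0.73 and -0.92, and the 5 lower rows are at values above 0.

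The 3 other members with lower values were acrosin, its binding protein and the second egg-coat binding protein. Acrbp was 116 ± 22.9 FPKM in A0 and 93.0 ± 29.2 in B0, 172 ± 65.0 in A10 and 117 ± 21.5 in BA10, and 186 ± 6.71 in A50 and 153 ± 38.9 in BA50 (SD, n = 3). Its groups overlapped in each comparison, with log2 changes of -0.35, -0.51 and -0.31 (limma, adjusted p = 0.503, 0.220 and 0.480). Acr, whose product Acrbp binds, was 45.7 ± 8.91 FPKM in A0 and 36.7 ± 10.8 in B0, with changes of -0.34, -0.33 and -0.16 in the 3 comparisons. Zpbp was 28.1 ± 6.02 in A0 and 23.5 ± 7.05 in B0, with changes of -0.27, -0.36 and -0.17. None of these 3 genes passed, and the differences are within the spread between samples. The signs of Acr and Zpbp in BA50 against A50 turned without BA50 replicate 1.

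The 5 members with higher values are a matrix protein, 2 acrosomal membrane or lysozyme-like proteins, the fusion protein and the hyaluronidase. Izumo1 was 18.8, 7.82 and 10.6 FPKM in A0, 11.6, 13.3 and 24.0 in A10 and 15.7, 13.1 and 14.3 in A50. It was 13.9, 18.7 and 11.7 in B0, 16.5, 35.4 and 12.9 in BA10 and 16.7, 36.7 and 26.1 in BA50. The groups overlap at 0 and 10 μg/mL AOS, and at 50 μg/mL each BA50 sample is above each A50 sample. The change there was 0.78 ± 0.38 (limma, SE; adjusted p = 0.177), and in the other 2 comparisons 0.29 and 0.33. Spaca3 had a similar course, from 38.2 ± 2.68 FPKM in A50 to 66.9 ± 19.5 in BA50 (log2 change 0.75, adjusted p = 0.172). It passed in a fit of these 2 groups alone (limma, adjusted p = 0.0494) and with samples weighted by quality, where Izumo1 and Acrv1 passed as well. The share of all genes that passed in these settings was not counted.

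Spaca1, the acrosome membrane protein, was 70.6, 41.8 and 53.2 FPKM in A0 and 74.0, 81.3 and 56.7 in B0, with 2 of the B0 samples above all of A0. Its changes were 0.37, 0.31 and 0.49 with an SE of 0.32. Acrv1 changed by 0.34, 0.33 and 0.50 and Spam1 by 0.38, 0.32 and 0.31. The smallest adjusted p of these 5 genes in the 3 comparisons was that of Spaca3 in BA50 against A50. For Spaca1, Spaca3 and Izumo1 in BA10 against A10 the sign turned without BA10 replicate 2. The median change of all 10 members was 0.01, -0.01 and 0.07 in the 3 comparisons, where the median over all genes tested was -0.04, 0.03 and -0.01.

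The 9 busulfan samples were also set against the 9 untreated samples as the mean of the 3 changes in the same fit, a comparison added after the data had been seen. It uses the same samples as the comparisons above and is not separate evidence. Dpy19l2 changed by -0.99 ± 0.14 (limma, SE; adjusted p = 6.35e-05) and Zpbp2 by -0.82 ± 0.17 (adjusted p = 0.00124). These 2 of 10 members were lower where 24.8% of all genes tested were. The other 8 did not pass, with Acrbp at -0.39 (adjusted p = 0.0689) and Spaca3 at 0.47 (adjusted p = 0.0954).

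Because 1 sample was often high or low for all 10 genes, the members were compared with each other within a sample. Ratios of this kind are free of what shifts all 10 alike. They are given as a description, and the division into 5 lower and 5 higher genes was read from these samples. The ratio of Zpbp2 to its relative Zpbp was 2.22 to 3.03 in the 9 untreated samples (median 2.70) and 1.39 to 2.13 in the 9 busulfan samples (median 1.85). The ratio of Dpy19l2 to Spaca1 was 0.367 to 0.679 without busulfan (median 0.533) and 0.138 to 0.257 with it (median 0.188). Neither pair of ranges overlaps. The ratio of Acrbp to Spaca3 was 3.2 to 5.14 and 1.78 to 3.15. By contrast Acrv1 to Spaca1, both from the side of higher values, was 0.712 to 0.875 in untreated and 0.711 to 0.889 in busulfan samples.

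Over all 45 pairs of members, the ratio separated the 9 busulfan from the 9 untreated samples in 25, and over all pairs of genes tested in 10.1%. The 45 ratios come from only 10 genes that followed each other, and many of the separated ones hold Dpy19l2 or Zpbp2. They are thus not 45 separate results, and the 10.1% is over pairs not matched for such likeness. The lower and higher sides were read from these same samples, so more separation across them restates the division and does not test it. Of the 25 pairs that join 1 of the 5 lower genes with 1 of the 5 higher genes, 19 were separated, and of the 20 pairs from the same side 6. All 6 of these hold Dpy19l2 or Zpbp2 with Acr, Acrbp or Zpbp. Each pair of a lower with a higher gene that was not separated holds Izumo1 or Spam1. As a share of the summed FPKM of the 10 genes, Zpbp2 made up 14.1% to 17.7% in untreated samples and 7.54% to 12.4% after busulfan. Dpy19l2 made up 4.68% to 7.0% and 2.55% to 3.91%. The shares of Acrv1, Spaca1 and Spaca3 were higher without overlap, with Spaca1 at 10.3% to 13.2% in untreated and at 14.6% to 20.4% in busulfan samples. Shares of 1 sum are tied to each other, so lower shares of Zpbp2 and Dpy19l2 raise those of the rest. In FPKM Acrv1, Spaca1 and Spaca3 overlapped between the 9 untreated and the 9 busulfan samples. How often such shares separate for other sets of genes was not counted. The summed FPKM itself overlapped between the groups, at 440 ± 93.1 in A0 and 408 ± 115 in B0 (SD, n = 3).

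**Figure D3:**
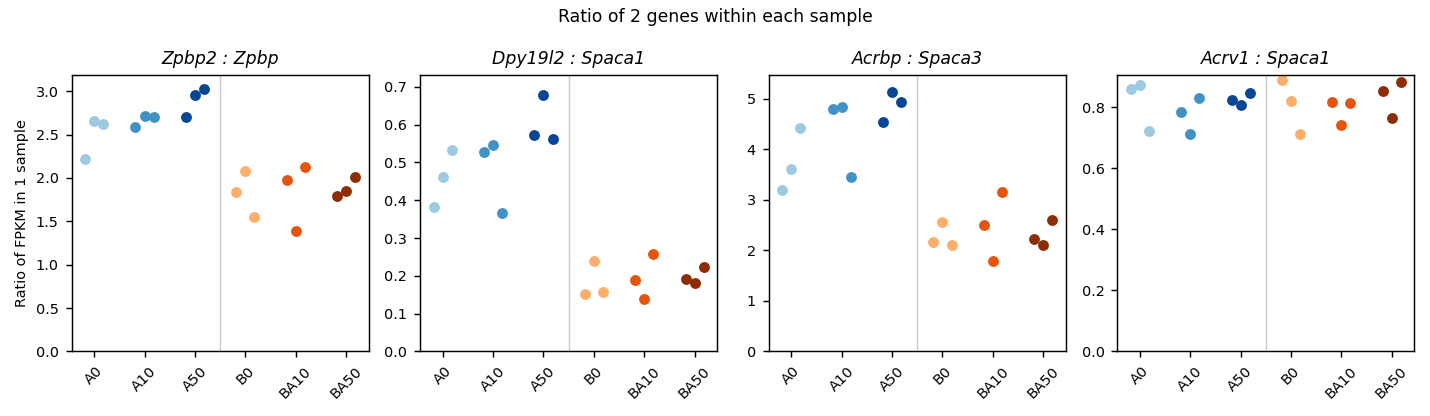
Ratio of the FPKM of 2 genes in each sample (vertical axes, starting at 0) by group, with 1 point per sample. Zpbp2 to Zpbp, Dpy19l2 to Spaca1 and Acrbp to Spaca3 are lower in each busulfan sample than in each untreated sample, while Acrv1 to Spaca1 covers about 0.71 to 0.89 in both.

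The profile of each member over the 18 samples was compared with the mean of the spermatocyte and of the spermatid marker genes (14 each). Dpy19l2 followed the spermatocyte genes with Pearson's r = 0.96 and Zpbp2 with r = 0.89, and their r with the spermatid genes was 0.05 and 0.12. Acrbp, Zpbp and Acr were in between, with r = 0.73, 0.68 and 0.65 for spermatocyte and 0.43, 0.53 and 0.57 for spermatid genes. For Izumo1, Spaca3, Spaca1, Acrv1 and Spam1 r with the spermatid genes was 0.90, 0.86, 0.84, 0.80 and 0.73, and r with the spermatocyte genes lay between -0.11 and -0.06. The order of the 10 genes on this scale is nearly that of their busulfan changes. It is a description: all points share the libraries and the difference between busulfan and untreated samples, which the spermatocyte genes follow. Within the 9 untreated samples Dpy19l2 had r = 0.93 with the spermatocyte genes and Spaca3 0.42, and within the 9 busulfan samples 0.97 and 0.83. Zpbp2 did not keep its place there: within the busulfan samples its r with the spermatocyte genes was 0.87, below Izumo1 (0.90) and next to Spaca1 (0.87) and Acrv1 (0.87). Both correlations were then positive for all 10 members, with lowest values of 0.42 and 0.44 in the untreated samples.

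**Figure D4:**
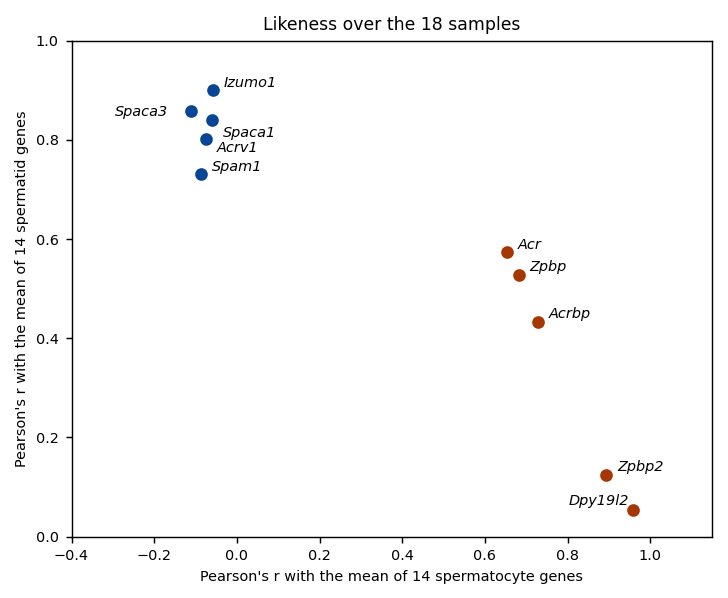
Pearson's r of each gene over the 18 samples, on log2(FPKM + 1), with the mean of 14 spermatocyte genes (horizontal axis) and of 14 spermatid genes (vertical axis); red points are the 5 genes with lower values after busulfan and blue points the 5 with higher values. Dpy19l2 and Zpbp2 lie at the spermatocyte end (0.96 and 0.89), and Izumo1 is highest on the spermatid axis (0.90).

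The members also followed each other. The median r of the 45 pairs was 0.64 over all 18 samples, but 0.91 within the 9 untreated and 0.91 within the 9 busulfan samples. The closest pair over all samples was Acr and Zpbp (r = 0.98), and the least alike was Spaca3 and Dpy19l2 (r = 0.04 over 18 samples, 0.61 within the untreated and 0.79 within the busulfan samples). The 5 other genes whose profile was most like the mean of the 10 over the 18 samples were Dyrk3 (r = 0.98), Btbd16, Erich2, Cfap126 and 4930453N24Rik, each at r = 0.98.

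The 3 lists of other acrosome and fusion genes were described by their counts. Of 14 genes for acrosome formation, 6 fell in each busulfan comparison and 0 rose, with medians of -0.12, -0.21 and -0.33. The 6 of 14 stand beside the 12.3%, 15.2% and 16.2% of all genes that were lower. The largest falls were those of Ccdc62, a protein needed for acrosome formation (-0.95, -1.01 and -1.22), and of Spata16, a Golgi and acrosome vesicle protein (-0.88, -0.97 and -0.87). Csnk2a2, a casein kinase subunit, fell by 0.50, 0.74 and 0.62 on the log2 scale. Pick1, which acts in the transport of vesicles from the Golgi, changed by -0.63, -0.61 and -0.52. These 4 genes passed in each of the 3 comparisons (limma, adjusted p from 0.000967 to 0.0301). Of the 3 most abundant genes of the list, Spata16 is given above and the other 2 did not pass: Actl7a was at 0.15, 0.35 and 0.69 and Fam209 at 0.38, 0.25 and 0.65.

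Of 17 genes for acrosome contents and membranes, Tmprss12 fell in all 3 comparisons (-0.96, -1.53 and -1.17; limma, adjusted p = 0.00580, 0.000105 and 0.000867). Tmprss12, a membrane serine protease, was low, at 2.17 ± 0.839 FPKM in A0 and 0.617 ± 0.372 in B0. Spink2, an inhibitor of acrosin-type proteases and the second most abundant of the list, fell in BA10 against A10 only by the test (-0.96, adjusted p = 0.0198), with -0.59 and -0.75 in the other 2 comparisons. Dkkl1, an acrosomal protein and the most abundant, changed by -0.53, -0.65 and -0.30, and Lyzl6, a lysozyme-like protein, by 0.39, 0.25 and 0.59, and neither passed. The medians of the list were 0.30, 0.16 and 0.49.

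Of 9 other genes of sperm-egg fusion, only Spaca6, a sperm membrane protein required for fusion, passed, and only in BA50 against A50, where it was higher (0.47 ± 0.13, SE; limma, adjusted p = 0.0212). The list had medians of 0.23, 0.19 and 0.61. Its most abundant genes Llcfc1 and Izumo2 changed by 0.30, 0.13 and 0.61 and by 0.30, 0.20 and 0.70, and Izumo4 by -0.25, -0.46 and -0.15. Izumo1 thus had the sign of Llcfc1 and Izumo2 in each comparison.

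The second question is whether AOS in the medium changed the transcripts, with and without earlier busulfan. All 10 members had higher mean values with AOS in each of the 4 comparisons, and none passed the test. The median log2 change of the members was 0.42 in A10 against A0, 0.45 in A50 against A0, 0.35 in BA10 against B0 and 0.61 in BA50 against B0, where the medians over all genes tested were -0.06, -0.06, -0.03 and -0.04. A10 and A50 are compared with the same A0 samples and BA10 and BA50 with the same B0 samples, so the 2 concentrations are not separate tests.

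Acr was 54.7, 36.9 and 45.6 FPKM in A0, 48.2, 54.1 and 93.1 in A10 and 69.4, 68.8 and 69.7 in A50. It was 40.1, 45.4 and 24.5 in B0, 40.8, 69.4 and 43.0 in BA10 and 46.5, 76.7 and 66.8 in BA50. All A50 samples are above all A0 samples and all BA50 samples are above all B0 samples, while the 10 μg/mL groups overlap with their controls. The log2 change was 0.61 ± 0.28 in A50 (limma, SE; adjusted p = 0.318) and 0.79 in BA50 (adjusted p = 0.133), the smallest adjusted p of a member in BA50 against B0. Acrbp was 137, 91.9 and 120 in A0, 182, 181 and 193 in A50, 100, 118 and 60.8 in B0 and 110, 186 and 164 in BA50. A50 again lies above A0, and 1 BA50 sample lies within B0. Its changes were 0.69 in A50 and 0.74 in BA50 (adjusted p = 0.282 and 0.143).

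Dpy19l2, with the values above, changed by 0.47 in A10 and 0.75 ± 0.25 in A50 (limma, SE; adjusted p = 0.346 and 0.227), and all samples of both groups were above all of A0. After busulfan it changed by 0.42 and 0.60, with overlap. BA50 at 19.9 ± 5.41 FPKM remained below A0 at 24.9 ± 4.87 (SD, n = 3) in the mean, with overlap, a difference that was not tested. Zpbp2 changed by 0.51 and 0.69 without busulfan and by 0.32 and 0.63 after it.

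At an adjusted p under 0.05, 0 members were higher in each of the 4 comparisons, where 0%, 0%, 0% and 0.00633% of genes tested were. The smallest adjusted p of a member was 0.346, 0.227, 0.749 and 0.133. At an unadjusted p under 0.05, 0 of 10 members were higher in A10 (4.51% of genes) and 4 of 10 in A50 (9.85%), and after busulfan 0 of 10 at the lower concentration (1.89%) and 4 of 10 at the higher (12.7%). The 4 genes were Acr, Acrbp, Zpbp2 and Dpy19l2 both in A50 against A0 and in BA50 against B0. These comparisons share no sample but take each gene's standard error from the same fit, so they are not fully separate tests. The 4 genes also followed each other over the 18 samples, with Pearson's r from 0.78 (Acr and Dpy19l2) to 0.98 (Acr and Acrbp). By overlap, 2 members lay above the control throughout in A10 (7.81% of genes) and 6 did so in A50 (17.6%), whereas BA10 had 0 such members (3.64%) and BA50 had 2 (11.2%). The 6 in A50 were Acr, Acrbp, Zpbp, Zpbp2, Spam1 and Dpy19l2, and the 2 in BA50 were Acr and Spaca3. With samples weighted by their quality these same 6 passed in A50 (limma, adjusted p from 0.0107 to 0.0395). Acr and Acrbp then passed in BA50 (adjusted p = 0.0358 and 0.0406). How many of all genes passed with these weights was not counted, so the weighted counts have no background share.

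The values at 10 μg/mL depended on single samples. Without A10 replicate 3 the median of the members in A10 against A0 was 0.12, with 8 of 10 above 0. In BA10 against B0 it was 0.07 without BA10 replicate 2 and 0.10 without B0 replicate 3, each with 8 of 10 above 0. At 50 μg/mL all 10 stayed above 0 in both comparisons with any 1 sample left out. Without A0 replicate 2 the median in A50 against A0 was 0.32, with the lowest member at 0.014. The median in BA50 against B0 was 0.46 without BA50 replicate 2 and 0.36 without B0 replicate 3. Values of other cell type markers differed too. The 9 Sertoli genes tested had a median of -0.76 in A10 and -0.26 in A50, all 9 below 0, and 0.05 and 0.17 after busulfan. The spermatid list had medians of 0.24, 0.12, 0.67 and 1.13 and the spermatocyte list of 0.29, 0.37, 0.33 and 0.45 in the 4 comparisons, and no gene of these 3 lists passed. Of the 5 epithelial genes, 3 fell in BA10 and in BA50 against B0, and of the 6 fat cell genes 3 fell in BA50 against B0. The part of these differences in the members' values was not tested.

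**Figure D5:**
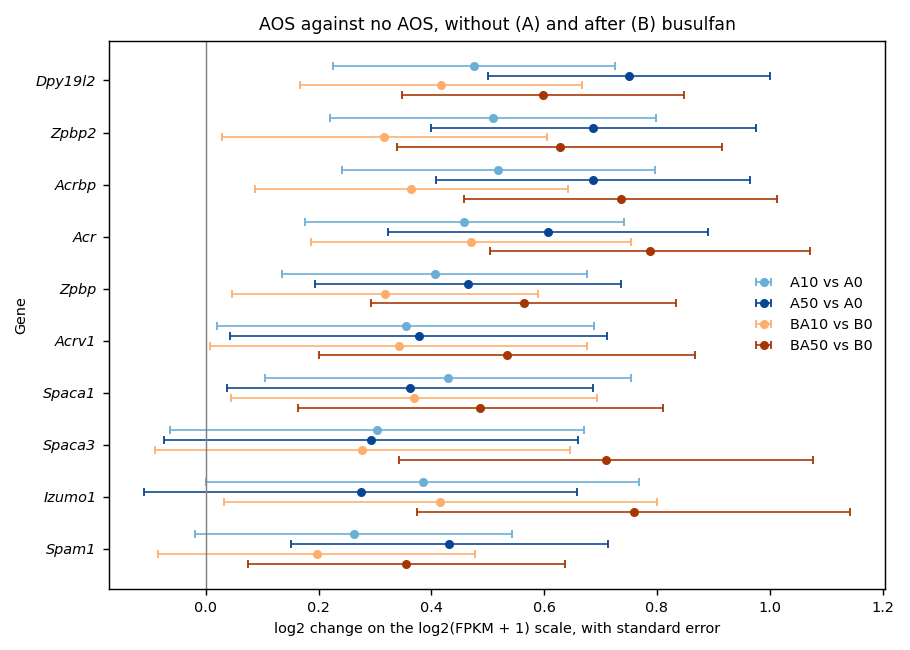
Log2 change of each gene with AOS on the log2(FPKM + 1) scale (horizontal axis), with its standard error, for 10 and 50 μg/mL without busulfan (A10, A50 vs A0) and after busulfan (BA10, BA50 vs B0). All points lie above 0, from 0.20 to 0.79, with standard errors of 0.25 to 0.38.

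Whether AOS acted differently after busulfan was tested as the difference of the 2 AOS changes. At 10 μg/mL the difference ranged from -0.19 (Zpbp2) to 0.03 (Izumo1), with 8 of 10 below 0. All 10 were above 0 without A10 replicate 3 or B0 replicate 2, and all 10 were below 0 without A0 replicate 1, A10 replicate 1 or 2, B0 replicate 3 or BA10 replicate 2. At 50 μg/mL it ranged from -0.15 (Dpy19l2) to 0.48 (Izumo1), with 7 of 10 above 0. That count was 2 without B0 replicate 3 and 3 without A0 replicate 1 or BA50 replicate 2, and all 10 were above 0 without A0 replicate 2, B0 replicate 2 or BA50 replicate 1. By limma 0 members had an unadjusted p under 0.05, and the smallest adjusted p was 0.964 and 0.975. With standard errors of 0.35 to 0.54 on the log2 scale, a difference between the AOS changes of this size could not be detected with 3 samples a group.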

How the data were processed

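Poly(A) RNA of cultured testes was sequenced on an Illumina HiSeq instrument. The values deposited by the authors are FPKM per gene, given to 2 decimals. The study's methods name SOAPaligner, and the submitters' processing notes name HISAT, Bowtie2, RSEM and GRCm38.p5, so the pipeline is not certain. Read counts were not used here, depth is unknown, and no count model was run. AOS concentrations follow the labels.

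A gene was kept where 3 or more samples reached 1 FPKM (15790 genes). log2(FPKM + 1) was fitted with limma 3.58.1 (R 4.3.3; trend; 12 residual degrees of freedom), with 1 term per group and Benjamini-Hochberg adjustment over all genes tested. In simulated data for B0 against A0 (15790 genes), 137 of 200 genes changed by 1 on the log2 scale and 194 of 200 changed by 2 were recovered. The limit was an adjusted p under 0.05, and 9 and 8 unchanged genes passed it. Noise was drawn separately for each gene, unlike the members here, which followed each other between samples. Same-numbered samples deviated together (r above 0.1 in all 3 pairs) only in BA50 against B0 (r = 0.56, 0.42 and 0.14).

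The members and gene lists were chosen with earlier results of these data known. Named genes were the members, the Dpy19l paralogs, per list the 3 most abundant and the 3 largest changes that passed in each direction, selected markers, and the 5 genes most like the members. The settings varied were the replicate block, fitting the compared groups alone, a pseudocount of 0.1, filters, scalings, other variance settings, sample weights and each sample left out.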

Additional observations from a re-analysis of the deposited data

How the results depend on the processing

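The rule of an adjusted p under 0.05 was also used with no limit on the change. It called 1, 2 and 1 members in B0, BA10 and BA50 against A0, A10 and A50. Sample weights gave 1 call in BA50 against A50 at the study's limits, and the share of all genes called with these weights was not counted. With the replicate block 0 members were called and 1 passed an adjusted p under 0.05 in each busulfan comparison, since Zpbp2 in BA10 against A10 was at 0.0523; the block changed no other call. Signs turned with sample weights for Spaca3 in A10 against A0 (-0.0026) and in BA10 against B0 (-0.029), and for Spam1 in BA10 against B0 (-0.068). Without A10 replicate 3, BA10 replicate 2 and BA50 replicate 2, chosen after seeing the data, signs turned for Acrv1 (-0.022) and Spaca3 (-0.14) in A10 against A0 and for Spaca3 (-0.072) and Spam1 (-0.072) in BA10 against B0. With 1 sample left out, BA10 against A10 ranged from -0.036 to 0.63 for Spaca1, -0.038 to 0.75 for Spaca3 and -0.083 to 0.62 for Izumo1. BA50 against A50 ranged from -0.31 to 0.046 for Acr and -0.33 to 0.023 for Zpbp. A10 against A0 ranged from -0.022 to 0.59 for Acrv1 and -0.14 to 0.55 for Spaca3, and BA10 against B0 from -0.072 to 0.48 for Spaca3, -0.033 to 0.61 for Zpbp2 and -0.093 to 0.37 for Spam1. The cause was not tested. Of 420 values with 1 sample left out 398 kept sign and side of the threshold, and of 770 under other alternatives 741 did. These counts say little about the calls. Most values did not pass in the main fit, and the block, group-only fit, filters and variance settings leave the log2 change itself the same. Among 17 alternatives each, Dpy19l2 passed an adjusted p under 0.05 in 12 (B0 against A0), 15 (BA10 against A10) and 17 (BA50 against A50). Zpbp2 in BA10 against A10 passed in 10 of 17.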
